A study of Mus musculus with 6 samples.

Results

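Acute phase proteins are plasma proteins whose synthesis in the liver changes during inflammation or tissue injury, and 10 of their genes were described here in mouse liver: the serum amyloid A genes Saa1, Saa2, Saa3 and Saa4, the lipocalins Lcn2, Orm1, Orm2 and Orm3, haptoglobin (Hp) and serum amyloid P component (Apcs). They were chosen by symbol: every probe that is not a control and carries one of these symbols in the authors' array annotation was taken. This gave 10 probes, 1 per gene, of 55681 probes that are not controls, and all 10 were well above background on all 6 arrays. Of all probes, 22731 were detected, meaning that in the control group, the TCE group or both, each of the 3 arrays had a signal well above background, and they represent 13284 genes with a symbol.

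The study exposed male B6C3F1 mice, a hybrid strain, to trichloroethylene (TCE), an industrial solvent. The 3 TCE mice received 1000 mg/kg b.w. by gavage once a day for 5 days, dissolved in corn oil, and the 3 control mice received corn oil. All mice were 7 weeks old and carried no transgene or deletion that the labels name. RNA of each mouse was read on 1 array with a single dye. The RNA came from whole liver, so a change in the number of cells of a type and a change in the RNA per cell cannot be told apart. The values below are log2 signals, on which a difference of 1 is a fold of 2, after quantile normalization of the 6 arrays. Signals of different probes are not comparable as levels, so each gene is compared only between mice.

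In the acute phase response, cytokines released by macrophages act on hepatocytes, and interleukin 6 through Stat3 and interleukin 1 through NF-kB and the C/EBP factors induce transcription of these genes. Serum amyloid A proteins associate with high density lipoprotein, and Saa1 and Saa2 are the forms induced in mouse liver, whereas Saa3 is also made by macrophages and fat and Saa4 is largely constitutive. Lcn2 binds bacterial siderophores and so withholds iron. The Orm genes encode orosomucoids, also called alpha-1-acid glycoproteins, which carry drugs and lipids in plasma. Haptoglobin binds free hemoglobin, and Apcs is the pentraxin that takes the place of C-reactive protein as a major acute phase protein in mice.

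The arrays were of similar quality, with 23538 to 24968 probes well above background, 123 to 189 outlier spots and 0 saturated spots per array. Log2 signals of 2 arrays correlated with r of 0.987 to 0.990 within control, 0.978 to 0.987 within TCE and 0.971 to 0.982 between the groups. Control mouse 1 was the only mouse on its slide, and the other 5 arrays shared a slide. The defining genes of liver were present: 12 of 12 hepatocyte markers were detected, 0 passed the threshold, and their summed intensity was 1930000 to 1990000 in control mice and 1810000 to 1890000 in TCE mice. The 3 brightest of them had fitted changes of -0.06 (Serpina1a), -0.18 (Alb) and -0.10 (Cyp2e1).

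At the level of the whole set, 0 of the 10 acute phase mRNAs passed the threshold, a fold of at least 2 with a limma p of at most 0.05 after Benjamini-Hochberg adjustment over all detected probes, beside 1.41% of detected probes in either direction and 1.03% higher in TCE. The fitted change was above 0 for 10 of 10 genes, as it was for 52.4% of detected probes. It was largest for Lcn2, Orm3, Saa2 and Saa1, with limma adjusted p of 0.0752, 0.272, 0.24 and 0.601. At an unadjusted p under 0.05 there were 4 genes, Lcn2, Hp, Saa2 and Orm3, all higher in TCE, beside 17.9% of detected probes in either direction and 11.0% higher in TCE. By the methods' t-test with a fold of 2 and no adjustment 1 gene passed, Lcn2, beside 1.71% of detected probes higher in TCE, and 0 passed with adjustment. The control and TCE mice did not overlap for 2 genes, Lcn2 and Hp, and this share of 10 is near the 25.7% of all detected probes whose groups did not overlap in either direction and the 15.5% whose TCE mice were all higher. The median fitted change was 0.50 over the 10 genes and 0.02 over all detected genes. These counts describe genes that share cytokine control and partly adjoin each other in the genome, so they are not independent.

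**Figure D1:**
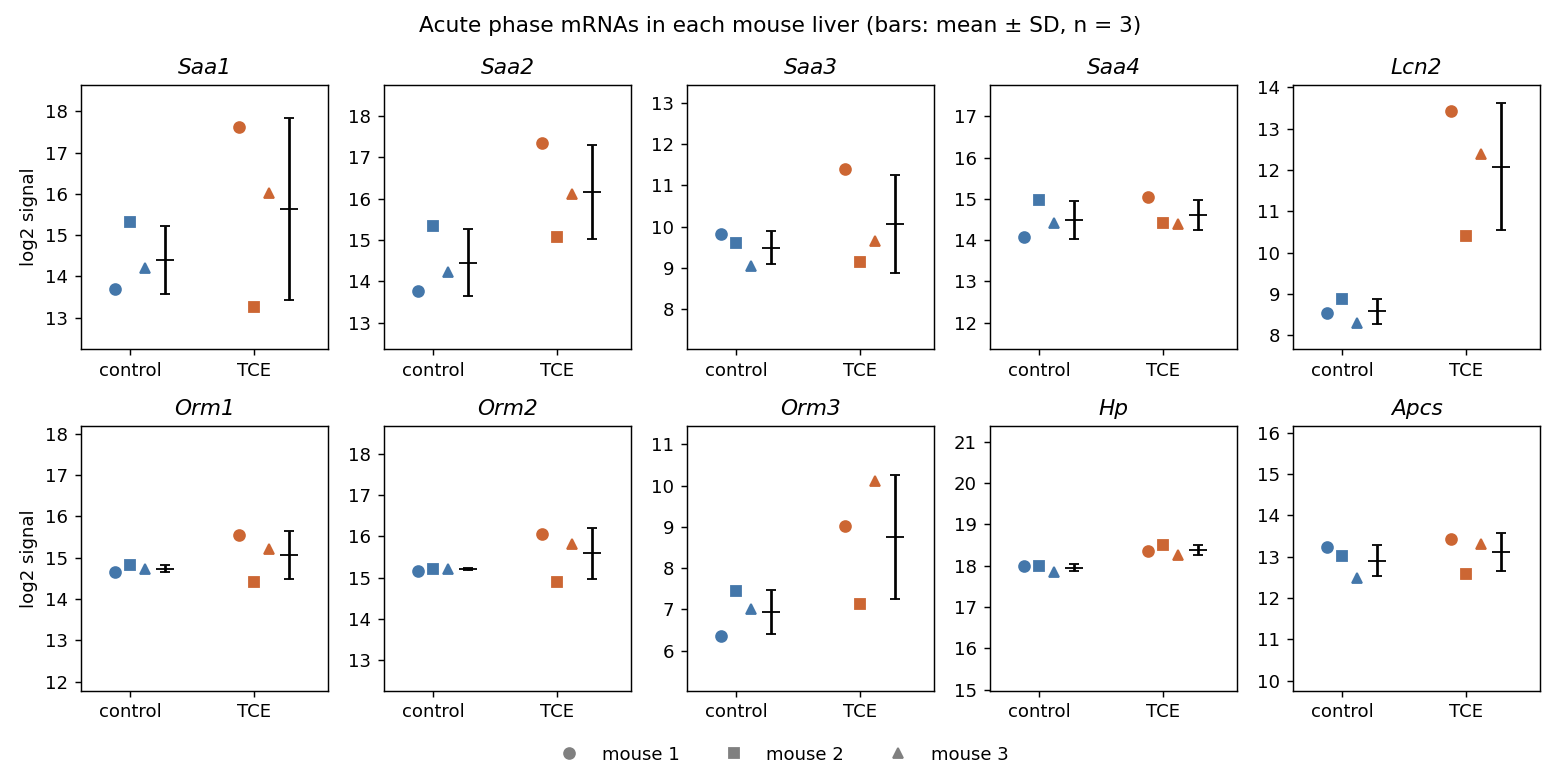
Log2 signal (vertical axis, quantile normalized, 1 panel per gene, each axis spanning an equal range) of the 10 acute phase mRNAs in each of 3 control and 3 TCE mice; symbols mark the mouse number and bars the mean ± SD. The 3 TCE mice are far apart for Saa1, Lcn2 and Orm3, and only Lcn2 and Hp have every TCE mouse above every control mouse.

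The serum amyloid A genes lie together on chromosome 7. The Saa1 probe maps to chr7:53996070-53996129 on the minus strand of mm9, the build of the array annotation. Because Saa1 and Saa2 are close paralogues, the probe that reads Saa1 is shown, from 5′ to 3′.

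Saa1 probe: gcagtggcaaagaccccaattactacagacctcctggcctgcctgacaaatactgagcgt

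This stretch has no run of more than 5 bases in common with the Saa2 probe, and 0 of the other probes on the array share a run of 20 or more bases with any of the 10 probes. Cross-hybridization of the paralogous transcripts themselves was not tested.

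Saa1 had log2 signals of 13.70, 15.31 and 14.21 in control mice 1, 2 and 3, and of 17.61, 13.26 and 16.02 in TCE mice 1, 2 and 3. TCE mouse 1 and TCE mouse 3 lay above every control mouse, and TCE mouse 2 lay below every control mouse. The means were 14.41 ± 0.82 and 15.63 ± 2.20 (SD, n = 3 each), a fitted change of 1.22 with a 95% interval of -1.37 to 3.82 (2.33-fold, limma adjusted p = 0.601, exact permutation p = 0.5, two-sided). The difference between TCE mouse 1 and TCE mouse 2 was 4.35, or 20.5-fold, and the SD of the TCE mice was larger than that of 99.7% of detected probes. Without TCE mouse 2 the fitted change was 2.41 (adjusted p = 0.169), and without TCE mouse 1 it was 0.24 (adjusted p = 0.929).

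Saa2, the other form induced in mouse liver, was measured at chr7:54009622-54009681 on the plus strand of mm9. Its log2 signals were 13.77, 15.35 and 14.23 in control mice and 17.34, 15.07 and 16.11 in TCE mice. TCE mouse 2 again had the lowest TCE value, but here it lay among the control mice. The fitted change was 1.72 with an interval of 0.17 to 3.27 (3.30-fold, unadjusted p = 0.0346, adjusted p = 0.24, exact permutation p = 0.2), and it was 1.14 without TCE mouse 1. Control mouse 2 had the highest control value of Saa1, Saa2 and Saa4, so the control mice were also spread, by 1.61 for Saa1.

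The probes of Saa1 and Saa2 can be compared within a mouse, if only the shift of their difference between mice is read and not the difference itself. Saa2 minus Saa1 was 0.07, 0.04 and 0.01 in control mice 1, 2 and 3, and -0.28, 1.81 and 0.09 in TCE mice 1, 2 and 3. Against its mean over the control mice, the difference was shifted by -0.32, 1.77 and 0.05 in TCE mice 1, 2 and 3, so that only TCE mouse 2 was shifted by more than 1, and within the control mice it stayed between -0.03 and 0.03. The group means of the difference were 0.04 ± 0.03 and 0.54 ± 1.11 (exact permutation p = 0.7, where 3 against 3 mice cannot go below 0.1), and the TCE mice were spread more widely than the control mice. In TCE mouse 2, Saa1 stood at -1.15 and Saa2 at 0.62 against their control means, and which probe gave the shift was not tested. The single Saa1 spot of TCE mouse 2 was not flagged as an outlier: its mean pixel intensity was 8746 and its median 8626.5 over 42 pixels, with a pixel SD of 8.3% of the mean. The Saa2 spot of that mouse was not flagged either, with a mean of 35868, a median of 35640 over 44 pixels and a pixel SD of 7.27% of the mean. The shift in TCE mouse 2 was 1.79 without normalization and 1.94 after normexp background correction. Scaling to the 75th percentile moves both probes of a mouse equally, so it could not change the unnormalized value. Each gene has 1 probe in 1 spot, so no second measurement of Saa1 or Saa2 in that liver exists on the array.

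**Figure D2:**
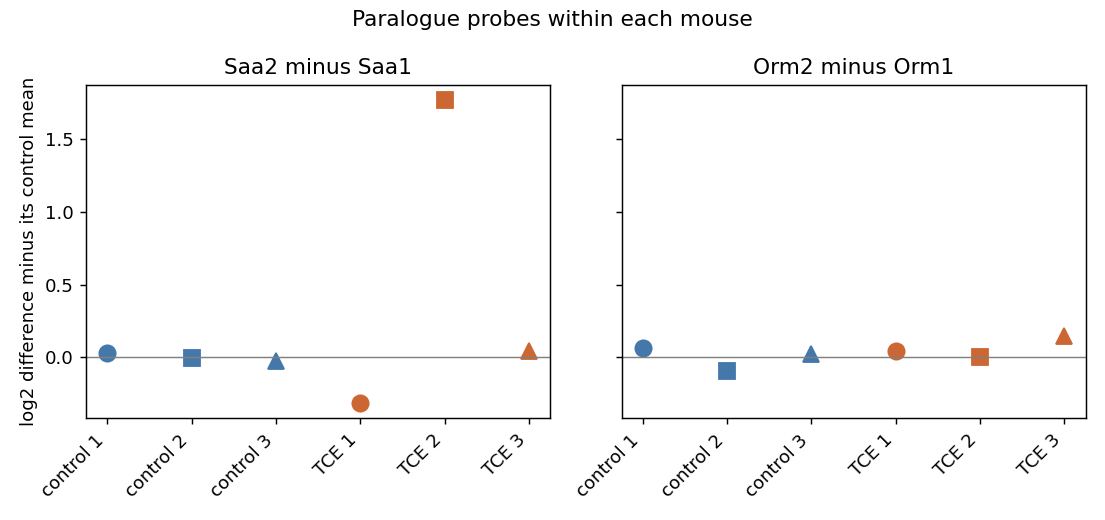
Log2 difference between the probes of 2 paralogues in each mouse (vertical axis), with its mean over the control mice taken off, for Saa2 minus Saa1 and for Orm2 minus Orm1. The Saa pair stands at 1.77 in TCE mouse 2 and between -0.32 and 0.05 in the others, and the Orm pair stays between -0.09 and 0.15 in all 6 mice.

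Saa3, the form also made outside hepatocytes, was measured at chr7:53970389-53970448 on the minus strand. It had log2 signals of 9.82, 9.59 and 9.05 in control mice and 11.40, 9.14 and 9.65 in TCE mice. Only TCE mouse 1 was above every control mouse. Its fitted change was 0.58 with an interval of -0.82 to 1.97 (1.49-fold, adjusted p = 0.649), and it was -0.09 without TCE mouse 1, 0.36 without control mouse 3 and 1.04 without TCE mouse 2.

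Saa4, the constitutive form, was measured at chr7:53983662-53983721 on the minus strand. It had log2 signals of 14.07, 14.98 and 14.42 in control mice and 15.04, 14.42 and 14.39 in TCE mice. The groups overlapped almost wholly, and the TCE mice were about as close to each other (SD 0.36) as the control mice (SD 0.46). For Saa4 the fitted change was 0.13 with an interval of -0.56 to 0.81 (adjusted p = 0.851), an interval that leaves out a fold of 2 in either direction. The sign turned to -0.08 with the slide as a factor, without control mouse 1 and without TCE mouse 1, and the change was 0.37 without control mouse 2, 0.22 without TCE mouse 2 and 0.24 without TCE mouse 3.

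Lcn2 gave the largest fitted change of the 10 genes. The probe maps to chr2:32240199-32240258 on the minus strand of mm9. Its log2 signals were 8.55, 8.88 and 8.29 in control mice and 13.42, 10.40 and 12.40 in TCE mice. Every TCE mouse was above every control mouse, by 4.85, 1.82 and 3.82 over the control mean in TCE mice 1, 2 and 3. The means were 8.58 ± 0.30 and 12.07 ± 1.54 (SD, n = 3 each), a fitted change of 3.50 with SE 0.72 and an interval of 1.76 to 5.23, which is 11.3-fold. With an adjusted p of 0.0752 (unadjusted p = 0.00236) it missed the threshold, and the exact permutation p was 0.1, the smallest that 3 against 3 mice allow. By the methods' t-test Lcn2 passed without adjustment and missed the threshold with it.

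The SD of the TCE mice for Lcn2 was larger than that of 99.1% of detected probes. Without TCE mouse 2 the change was 4.33 and passed (adjusted p = 0.0178), and with array weights it was 3.88 and passed (adjusted p = 0.0263). In the fits without one of the other mice the change was 2.82 to 3.65 and the adjusted p 0.148 to 0.206. TCE mouse 1 had 8.12 times the Lcn2 signal of TCE mouse 2, a difference of 3.02.

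**Figure D3:**
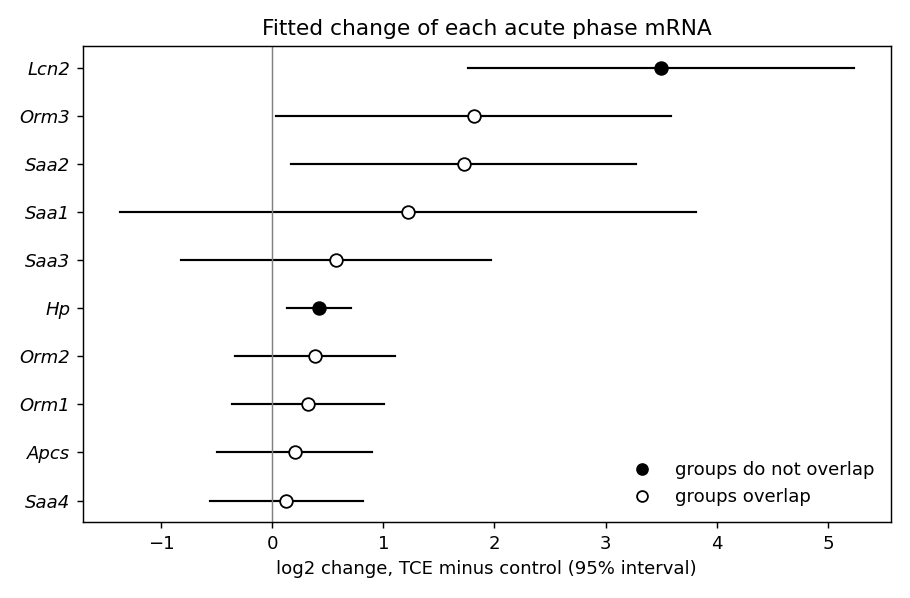
Fitted log2 change (horizontal axis, TCE minus control) of each of the 10 acute phase mRNAs with its 95% interval from limma; filled points are genes whose control and TCE mice do not overlap. The intervals of Lcn2, Orm3, Saa2 and Hp lie above 0, and those of the other 6 genes include 0.

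The orosomucoid genes lie side by side on chromosome 4 and were read by probes of distinct sequence. The Orm1 probe spans 608 bases of genome (chr4:63006483-63007090, plus strand, mm9) and the Orm3 probe 1484 bases (chr4:63018910-63020393, plus strand), so both cross an intron, while the Orm2 probe maps without a gap (chr4:63024979-63025038, plus strand). Their sequences are given because these genes are closely related, and they have at most 7 bases in a row in common. This compares probe with probe only. The match of each probe to the transcripts of the other Orm genes was not tested.

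Orm1 probe: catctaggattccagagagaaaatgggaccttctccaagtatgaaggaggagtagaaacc
Orm2 probe: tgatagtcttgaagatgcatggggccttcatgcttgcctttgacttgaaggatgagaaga
Orm3 probe: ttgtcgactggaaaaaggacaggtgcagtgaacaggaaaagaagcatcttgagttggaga

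Orm3 differed most among them. Its log2 signals were 6.37, 7.44 and 7.01 in control mice and 9.03, 7.12 and 10.10 in TCE mice. TCE mouse 3 was highest and TCE mouse 2 lay among the control mice. The fitted change was 1.81 with an interval of 0.04 to 3.59 (3.51-fold, unadjusted p = 0.0466, adjusted p = 0.272, exact permutation p = 0.2), and the SD of the TCE mice, 1.51, was above that of 99.0% of detected probes. Without TCE mouse 3 the fitted change was 1.13 (adjusted p = 0.397), and without TCE mouse 2 it was 2.61.

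Orm1 had log2 signals of 14.65, 14.84 and 14.73 in control mice and 15.54, 14.42 and 15.22 in TCE mice. The control mice were within 0.2 of each other, TCE mice 1 and 3 were above them all and TCE mouse 2 was below them all. The difference between the groups was 0.32 with an interval of -0.36 to 1.01 (adjusted p = 0.602), and it was 0.086 without TCE mouse 1 and 0.64 without TCE mouse 2.

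Orm2 followed the same order, with 15.17, 15.20 and 15.22 in control mice and 16.05, 14.88 and 15.82 in TCE mice. Its control SD of 0.024 was larger than that of only 2.17% of detected probes, whereas its TCE SD of 0.62 was larger than that of 92.0%. For Orm2 the fitted change was 0.39 with an interval of -0.33 to 1.1 (adjusted p = 0.551), and it was 0.16 without TCE mouse 1 and 0.73 without TCE mouse 2 (adjusted p = 0.08). Within a mouse Orm2 minus Orm1 was 0.52, 0.37 and 0.48 in control mice and 0.50, 0.46 and 0.61 in TCE mice, and after each gene's mean over the 6 mice was taken off, this pair had the smallest root mean square difference of any pair of the 10 genes, 0.0712. The largest, 1.85, was between Saa4 and Lcn2.

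The Hp probe maps to chr8:112099045-112099104 on the minus strand, and its log2 signals were 18.00, 18.00 and 17.86 in control mice and 18.37, 18.50 and 18.25 in TCE mice. All TCE mice were above all control mice, and TCE mouse 2, the lowest TCE mouse for 8 of the 10 genes, was the highest here. Before quantile normalization its Hp intensity was the lowest of the TCE mice, 303771 beside 358292 and 355571 in TCE mice 1 and 3. The order of the TCE mice for Hp thus depends on the normalization. The TCE mean exceeded the control mean by 0.42 with SE 0.12 and an interval of 0.13 to 0.71, which is 1.34-fold and under the fold threshold (unadjusted p = 0.0112, adjusted p = 0.147, exact permutation p = 0.1). After scaling to the 75th percentile the change was 0.25 (adjusted p = 0.433). The SD of the TCE mice, 0.12, was larger than that of 25.7% of detected probes, and 0 spots of the gene were saturated.

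Apcs was measured at chr1:174824959-174825018 on the minus strand, with log2 signals of 13.23, 13.01 and 12.48 in control mice and 13.43, 12.59 and 13.31 in TCE mice. The groups overlapped, and their means differed by 0.20 with an interval of -0.49 to 0.90 (adjusted p = 0.755). With 1 mouse left out the change ran from -0.0092 without control mouse 3 to 0.47 without TCE mouse 2.

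The same TCE mice stood out for most of the genes. TCE mouse 1 was the highest TCE mouse for 8 of 10 genes and TCE mouse 2 the lowest for 8 of 10, beside 28.2% and 28.5% of detected probes, and both held for 7 of 10 genes, beside 13.9%. TCE mouse 1 was above all control mice for 10 of 10 genes, beside 34.9% of detected probes, TCE mouse 3 for 8, beside 30.7%, and TCE mouse 2 for 2, Lcn2 and Hp, beside 40.6%. For 3 genes, Saa1, Orm1 and Orm2, TCE mouse 2 was below all control mice, as it was for 26.3% of detected probes. The median of the 10 genes over the control mean was 1.38 in TCE mouse 1, -0.19 in TCE mouse 2 and 0.55 in TCE mouse 3, while over all detected genes the medians were 0.02, 0.08 and 0.01. The median SD was 0.88 in TCE and 0.39 in control mice for the 10 genes, and 0.19 and 0.15 for all detected genes. Without TCE mouse 1 the median change of the 10 genes was 0.20, and without TCE mouse 2 it was 0.89. These orders were seen in the same values and are given with no test.

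**Figure D4:**
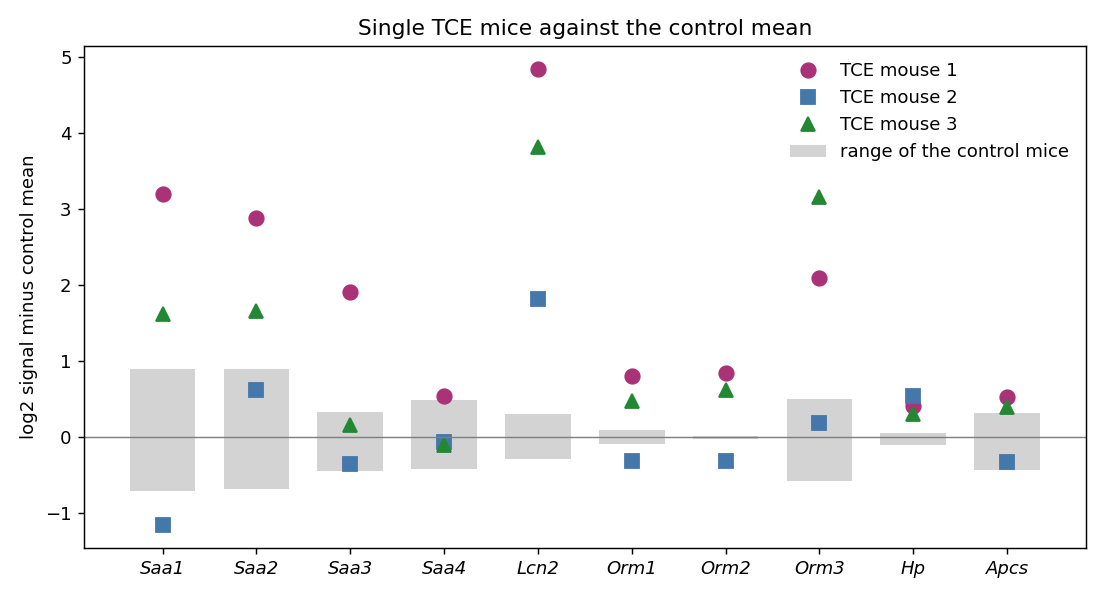
Log2 signal of each TCE mouse minus the control mean (vertical axis) for the 10 acute phase mRNAs, with grey bars for the range of the 3 control mice. TCE mouse 1 is above the grey bar for all 10 genes, and TCE mouse 2 is above it only for Lcn2 and Hp.

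Promoters, from 250 bases before to 50 bases after the start of transcription, were taken from RefSeq on GRCm38.p6 for 8 of the 10 genes, all but Hp and Orm1. They were searched on both strands for 4 short motifs, of which 2 are given in capitals below: TTNNGCAA, a C/EBP core, and a 10-base NF-kB core that has GGG at its 5′ end, TCC at its 3′ end and 4 free bases between them. The promoters of the 4 genes with the largest fitted changes and of Saa3 are shown, in the direction of transcription, and some of these genes have several annotated starts. Their positions are chr7:46742931-46743230 (minus strand) for Saa1, chr7:46751583-46751882 (plus strand) for Saa2, chr7:46715627-46715926 (minus strand) for Saa3, chr2:32387690-32387989 (minus strand) for Lcn2 and chr4:63355908-63356207 (plus strand) for Orm3.

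Saa1 promoter: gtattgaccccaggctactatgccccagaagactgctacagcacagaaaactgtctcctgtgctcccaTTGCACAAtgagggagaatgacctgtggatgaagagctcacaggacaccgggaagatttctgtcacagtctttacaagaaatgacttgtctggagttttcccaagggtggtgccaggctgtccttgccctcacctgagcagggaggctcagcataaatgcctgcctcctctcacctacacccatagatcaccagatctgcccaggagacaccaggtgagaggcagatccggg
Saa2 promoter: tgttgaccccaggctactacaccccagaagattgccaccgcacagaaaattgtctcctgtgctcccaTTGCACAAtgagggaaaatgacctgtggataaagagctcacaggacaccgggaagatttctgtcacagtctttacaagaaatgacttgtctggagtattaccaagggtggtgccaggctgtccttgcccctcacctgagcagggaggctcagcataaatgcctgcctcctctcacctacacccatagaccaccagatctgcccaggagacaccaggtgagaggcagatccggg
Saa3 promoter: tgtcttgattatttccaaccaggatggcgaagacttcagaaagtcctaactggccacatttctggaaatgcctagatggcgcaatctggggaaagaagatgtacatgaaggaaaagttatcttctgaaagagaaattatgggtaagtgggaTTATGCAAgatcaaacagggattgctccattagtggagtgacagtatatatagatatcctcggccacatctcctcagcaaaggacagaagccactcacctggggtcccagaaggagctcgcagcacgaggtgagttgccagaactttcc
Lcn2 promoter: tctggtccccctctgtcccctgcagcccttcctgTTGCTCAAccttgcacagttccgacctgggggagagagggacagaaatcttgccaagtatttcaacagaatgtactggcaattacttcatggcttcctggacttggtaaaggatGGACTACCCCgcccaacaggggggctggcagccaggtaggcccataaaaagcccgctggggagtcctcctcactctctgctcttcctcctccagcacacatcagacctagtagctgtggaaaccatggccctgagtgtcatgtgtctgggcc
Orm3 promoter: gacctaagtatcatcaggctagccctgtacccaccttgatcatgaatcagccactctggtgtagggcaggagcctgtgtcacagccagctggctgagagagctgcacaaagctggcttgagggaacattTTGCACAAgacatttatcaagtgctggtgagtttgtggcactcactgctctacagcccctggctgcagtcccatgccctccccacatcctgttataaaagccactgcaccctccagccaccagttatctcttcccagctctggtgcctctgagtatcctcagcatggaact

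The C/EBP letters are in 7 of the 8 promoters, all but that of Apcs, and in 10.8% of 32851 mouse promoters of this length. Counted from the start that the RefSeq promoter window uses, they begin at -182 in Saa1, -183 in Saa2, -99 in Saa3, -216 in Lcn2 and -121 in Orm3. That start is the 5′ bound of the RefSeq gene for Saa2 and Lcn2, but lies 201 bases downstream of it for Saa1, 3939 for Saa3 and 89 for Orm3, so another transcript of these 3 genes would give other positions and another promoter. The promoters of Saa1 and Saa2 are 96.0% identical over 299 aligned bases and those of Orm2 and Orm3 89.2% over 295, so their matches are not independent. Only the Lcn2 promoter of the 8 holds the NF-kB letters, at -102 to -93 from the start, beside 19.2% of all promoters. The STAT letters TTCNNNGAA were found in 1 of the 8, Apcs, beside 8.3% of all, and TATAAA, the TATA box, in 2, Orm2 and Orm3, beside 13.6%. A match of letters is a description of the sequence and shows no binding. Saa1 and Saa2, with the same motif and nearly the same sequence in these windows, are the pair that parted in TCE mouse 2. That parting rests on 1 spot per gene in 1 mouse, and a link to the promoters was not tested.

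The genes around these 10 were taken as 4 lists. Of 30 other positive acute phase genes 27 were detected, and 2 rose past the threshold while 0 fell. Of all detected probes 1.03% rose and 0.383% fell past it, shares that also stand beside the counts of the other lists. Vnn1, a pantetheinase that is also a known target of the fatty acid receptor PPARα, rose by 3.33 (adjusted p = 0.00544), from 8.99, 8.99 and 8.09 to 11.86, 12.32 and 11.90, and kept its call whichever of the 6 mice was left out. Il1rn, the antagonist of the interleukin 1 receptor, was not well above background in control mice. It was at least 1.95-fold higher in TCE mice (adjusted p = 0.0459). That bound is under the fold threshold, and the call rests on a fitted 2.28-fold that uses the dim control values. The Il1rn call ended whichever mouse was left out (adjusted p 0.0653 to 0.163). The median change of the list was 0.16, beside 0.02 over all detected genes. In 20 of its 27 genes TCE mouse 1 was the highest TCE mouse, beside 28.2% of detected probes. In 13 of them TCE mouse 2 was the lowest, beside 28.5%. The fitted change was above 0 for 18 of the 27 genes, beside 52.4% of detected probes. Other values of this list, chosen after they were seen, were 1.07 for Fgl1 (adjusted p = 0.0525), 0.71 for the endotoxin-binding protein Lbp (adjusted p = 0.148), 0.38 for the heme-binding protein Hpx (adjusted p = 0.163) and 0.14 for Crp (adjusted p = 0.743). The lowest were -0.53 for Hamp (adjusted p = 0.685) and -0.22 for Cfb (adjusted p = 0.537).

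Of the 17 negative acute phase genes, whose proteins decline in inflammation, all were detected and 1 fell. Igfals, which keeps insulin-like growth factor in the circulation, fell by 1.13 (adjusted p = 0.0251), and the call ended whichever mouse was left out (adjusted p 0.0579 to 0.12). The median of the list was -0.10. Albumin (Alb) had a fitted change of -0.18 (adjusted p = 0.617).

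Of 41 cytokines, receptors, signaling proteins and transcription factors of acute phase induction 32 were detected, 0 rose and 1 fell, and the median change was 0.06. Lifr, a receptor for cytokines of the interleukin 6 family, fell by 1.17 (adjusted p = 0.0292), a call kept only without control mouse 3 when each mouse was left out in turn. The cytokines Il6, Tnf, Il1a, Osm and Il22 were well above background on 0 arrays. Among the C/EBP factors, Cebpb had a fitted change of 0.98 (adjusted p = 0.14), Cebpd of 1.11 (adjusted p = 0.191) and Cebpa of -0.42 (adjusted p = 0.215). Stat3 had 0.40 (adjusted p = 0.228), and Socs3, a feedback inhibitor induced by Stat3, -0.18 (adjusted p = 0.883). Tnfaip3, a feedback inhibitor induced by NF-kB, had log2 signals of 6.89, 6.56 and 6.01 in control mice and 10.13, 6.99 and 7.71 in TCE mice (adjusted p = 0.301). TCE mouse 1 had the highest value and TCE mouse 2 the lowest TCE value, just above the highest control mouse. Over the list, TCE mouse 1 was the highest TCE mouse in 18 of 32 genes, beside 28.2% of detected probes. TCE mouse 2 was the lowest in 12, beside 28.5%. These factors, other than Lifr, were named after their values were seen.

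Of 14 receptors and partners of the 10 proteins 9 were detected and 1 rose. Cd36, a fatty acid transporter that also binds serum amyloid A, rose by 2.96 (adjusted p = 0.00301) and kept the call whichever mouse was left out. Slc22a17, a receptor for Lcn2, had a fitted change of -0.36 (adjusted p = 0.42), a value chosen after it was seen.

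**Figure D5:**
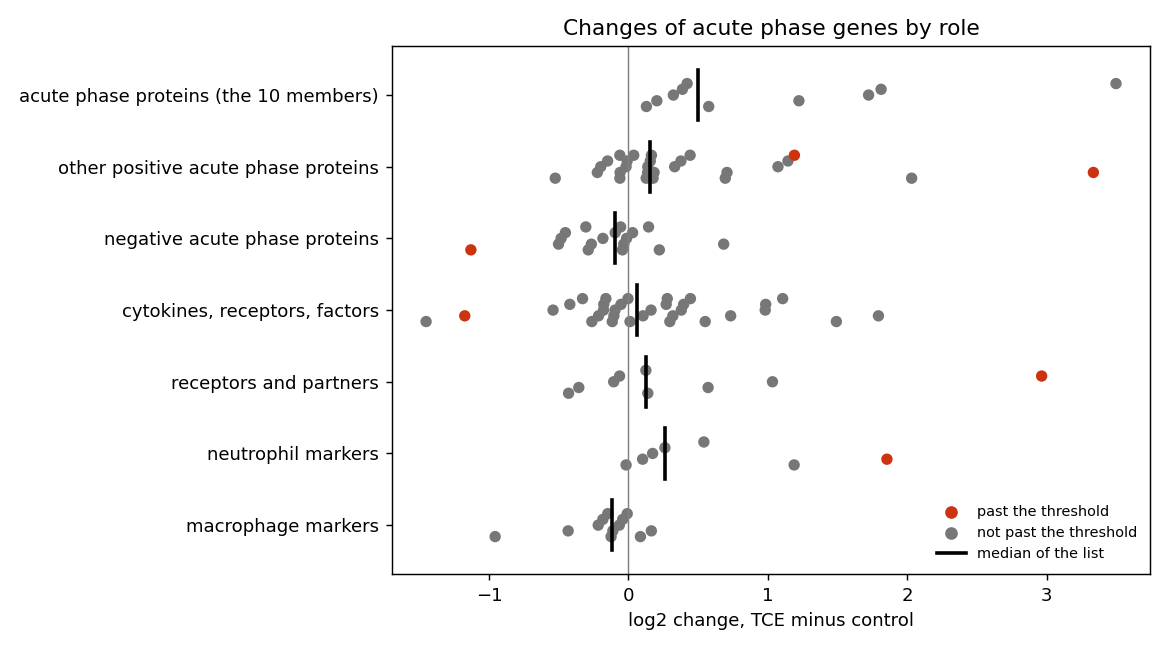
Fitted log2 change (horizontal axis, TCE minus control) of each detected gene, 1 point per gene, in the 10 acute phase mRNAs, the 4 lists of related genes and the neutrophil and macrophage markers, with the median of each list as a black line and genes past the threshold in red. The medians of the lists lie between -0.12 and 0.26, and that of the 10 genes is 0.50.

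Lcn2 and Saa3 are also made by neutrophils, macrophages and fat cells, so markers of these cells were read in the same livers. Of 14 neutrophil markers 7 were detected and 1 rose: Prtn3, a protease of neutrophil granules, was at least 2.68-fold higher (adjusted p = 0.0234), a call that was kept only without TCE mouse 2 when each mouse was left out in turn. The summed intensity of the list was 12100 to 26000 in control mice and 29700, 22300 and 20000 in TCE mice 1, 2 and 3. That sum mostly follows the brightest probe, Csf3r, with log2 signals of 14.59, 13.32 and 13.66 in control mice and 14.76, 14.32 and 14.12 in TCE mice. Of the 7 detected markers 6 had a fitted change above 0, beside 52.4% of detected probes. S100a8 had 1.19 (limma adjusted p = 0.0886) and Ly6g -0.02. Mpo, Ngp, Ltf, Retnlg, Cxcr2 and Mmp8 were well above background on 0 arrays. Of 13 macrophage and Kupffer cell markers 12 were detected and 0 passed, with fitted changes of -0.01 for Cd5l, -0.07 for Csf1r and -0.12 for Clec4f, and sums of 28800 to 32500 in control and 26800 to 34100 in TCE mice. Of 8 adipocyte markers 3 were detected and 1 rose. Cidec, a lipid droplet protein that fatty hepatocytes also make, rose by 1.97 (limma adjusted p = 0.00553), a call kept whichever mouse was left out. Adipoq, Lep and Plin1 were well above background on 0 arrays. The summed intensity was 245000 to 298000 in control and 201000 to 270000 in TCE mice. It was almost wholly that of Car3 and Pck1, with mean log2 signals of 17.40 and 16.33 beside 7.47 for Cidec. The sum was therefore not read as a level of fat cells. Of 7 bile duct markers 3 were detected and 0 passed, with fitted changes of -0.22 for Spp1, -0.13 for Krt19 and -0.38 for Sox9 and sums of 423 to 577 and 357 to 482. The part of these cells in the values of Lcn2 and Saa3 was not tested.

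For the 3 genes with the largest fitted changes, the genes most like them over the 6 mice were sought by the root mean square difference of the log2 signals after each gene's mean was taken off. Lcn2, whose own values lie 1.97 from their mean on this measure, had Clhc1, Cyp2b10, Slc2a4 and Pnpla3 as its 4 nearest genes. Clhc1 and Pnpla3 were well above background in 0 of 3 control mice and Slc2a4 in 2, so their control values are bounds in part or whole and only Cyp2b10 (0.671) has a measured distance. Cyp2b10, a cytochrome P450 of drug metabolism, had 10.36, 9.53 and 9.85 in control mice and 13.34, 11.20 and 12.63 in TCE mice. It thus had the same order of TCE mice as Lcn2. Saa2, with 1.18 on this measure, was closest to Pip5k1a (0.351), Mt2 (0.467) and Mt1 (0.509), with Cdk15, well above background in 1 of 3 control mice, among the 4 nearest. The metallothionein Mt2, a zinc-binding protein of the positive acute phase list, had 14.39, 15.47 and 13.48 in control mice and 17.42, 15.73 and 16.27 in TCE mice, with a fitted change of 2.03 (adjusted p = 0.162), and Mt1 had 1.14 (adjusted p = 0.191). Orm3, with 1.29, was closest to Ifi27l2b (0.487), Lysmd2 (0.53) and Hspa1a (0.625), with Acpp, well above background in 2 of 3 control mice, among the 4 nearest. The closeness covers 6 mice and was chosen from 13284 genes, so it is given as a description.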

How the data were processed

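Liver RNA of 3 control and 3 TCE mice was measured on 1-colour arrays. Per the labels and the deposited scanner files, Feature Extraction 10.7.1.1 gave each spot a background-subtracted intensity and flags. The authors' deposited table gives the group means of quantile-normalized log2 values and no value of a single mouse. The means computed here lay within 0.00673 of it for the 10 genes. A further 6 per-sample columns of flags, whose names did not match the sample titles, were not used.

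Controls were left out (59305 spots of 55681 probes remained), spots flagged as outliers were set to missing, and log2 intensities (no pseudocount) were averaged per probe and quantile normalized. The test was limma's moderated test (version 3.58.1, R 4.3.3; lmFit, then eBayes, two-sided) of group in the detected probes, with Benjamini-Hochberg adjustment over all 22731. The methods' t-test was run on the same values. Exact permutation p-values are two-sided over the 20 splits into 3 and 3 mice, with 0.1 the smallest possible. Intervals are 95%. A probe not well above background in a group gives only a bound. With 3 mice per group, the number of arrays limits the precision: on simulated data with the spread of these arrays (22723 probes, 200 changed, 5 draws), 71.4% of changes of 1.5 and 90.8% of changes of 3 were found, with 5.4 false calls per draw. The changed probes were drawn from all detected ones. The median SD in TCE mice was 0.19 over all detected genes but 0.88 over the 10 members. These shares therefore do not apply to genes as spread as the members.

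A listed gene was read from its brightest detected probe. Named genes are the 10 members, list genes past the threshold (up to 6 a list), otherwise the 3 brightest of a list, and the 4 genes most like each of the 3 members with the largest change. Fgl1, Lbp, Hpx, Crp, Cfb, Alb (among the negative genes), Cebpa, Cebpb, Cebpd, Stat3, Socs3, Tnfaip3, the undetected genes, Slc22a17, Csf3r, S100a8, Ly6g, Car3, Pck1, Hamp and Il1b fall outside this rule and were chosen after their values were seen. The members and lists were chosen with earlier results of these data known, so no direction of theirs is independent support. Sequences were compared with Biopython 1.88 in Python 3.11.15. The alternatives tried were scaling to the 75th percentile, normexp (offset 50), other filters, outlier spots kept, replicate and slide factors, another variance model, array weights, other tests and thresholds, another rule for genes with several probes, and each mouse left out.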

Additional observations from a re-analysis of the deposited data

How the results depend on the processing

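The count of the 10 acute phase mRNAs past the threshold was 0, and it was 1 (Lcn2) with array weights, 1 (Lcn2) by the methods' t-test without adjustment, and 0 to 1 with 1 mouse left out. The count of detected probes past the threshold was 321, and it was 96 without a filter on dim probes, 63 with the replicate number as a block, 177 with the slide as a factor, 594 by the methods' t-test without adjustment, 35 by that test with adjustment, and 114 to 245 with 1 mouse left out (114 without control mouse 2, 245 without TCE mouse 3). The count of genes past the threshold in the 4 lists of related genes was 5, and it was 1 without the filter, 1 with the replicate block, 2 with the slide as a factor, 8 by the t-test without adjustment, 0 with adjustment, and 2 to 3 with 1 mouse left out. The median change of the 10 genes was 0.50 and ran from 0.20 to 0.89 with 1 mouse left out. The replicate block could not change it, since each replicate number holds 1 control and 1 TCE mouse. The direction turned for Apcs without control mouse 3 (-0.0092 to 0.47 over the mice left out), for Saa3 without TCE mouse 1 (-0.093 to 1.04), and for Saa4 without control mouse 1 or TCE mouse 1 (-0.082 to 0.37) and with the slide as a factor (-0.080). The cause was not tested. The other 7 genes kept their direction in all 18 alternatives. Some of these could not turn it. The filters, the replicate block, the variance model, the t-tests and the adjusted p alone left each fitted change the same. Under the replicate block Lcn2 had an adjusted p of 0.177, and the block changed no call among the 10 genes. Same-numbered mice did not deviate together (r of 0.09, 0.01 and -0.09), so the numbers were not taken as pairs. Animals at other doses were not analysed here, and each gene rests on 1 spot per mouse.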

Other observations

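The values of 2 related genes in single mice, chosen after they were seen, are given here. Hamp, which encodes the iron hormone hepcidin, had log2 signals of 16.13, 16.02 and 16.22 in control mice and 16.37, 16.29 and 14.13 in TCE mice, so that TCE mouse 3 alone was low. Il1b, an inducer of the acute phase response, had 6.92, 6.63 and 5.41 in control mice and 4.51, 4.69 and 5.40 in TCE mice, a fitted change of -1.45 (limma adjusted p = 0.162), and was well above background on 1 of the 3 TCE arrays.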
